A study of Mus musculus with 16 samples.

Results

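Oxidative phosphorylation was followed through the genes that encode its nuclear subunits in mouse embryonic fibroblasts treated with the iron chelator dipyridyl (DP), the histone deacetylase inhibitor trichostatin A (TSA) or both. Genes were taken by symbol from the annotation of the array: symbols that begin with Nduf followed by a, b, c, s or v (complex I), Sdha to Sdhd (complex II), Uqcr (complex III), Cox4 to Cox8 (complex IV) and Atp5 (complex V, the ATP synthase). There were 90 such genes, of which 84 were measured among 11481 genes tested on the array. A gene counted as measured when a probe set had a signal of at least 200 on at least 2 arrays, and the probe set with the highest mean then stood for the gene. The 84 comprised 35 complex I, 4 complex II, 8 complex III, 12 complex IV and 17 complex V genes, 76 in all, and 8 genes named Ndufaf. The latter share the start of the symbol but encode complex I assembly factors and not subunits. Complexes follow the symbol, so Ndufa4, now placed in complex IV, and its relative Ndufa4l2 count under complex I throughout. Of these 84 genes, 78 had a signal of at least 200 on all 16 arrays. The rule names no treatment, but a gene of low signal could pass the minimum through the arrays of 1 treatment or line, as Cox8c did on 2 flox1 arrays (240.7 with DP and 366.6 with TSA and DP).

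RNA came from 4 lines of primary fibroblasts of e14.5 embryos, and each of the 4 treatments of a line had 1 array. The triCH1flox1 line had the genotype CBP CH1/flox;p300 CH1/CH1 and the triCH1flox2 line CBP CH1/CH1;p300 CH1/flox, where CH1 stands for an allele lacking the CH1 domain and flox for a conditional knockout allele. The control lines were flox1 (CBP+/flox) and flox2 (p300 +/flox). All 4 lines, controls included, received an adenovirus carrying Cre at passage 3, to delete the conditional allele, and then expanded at least 100-fold. CBP and p300 are related histone acetyltransferases and coactivators, and CH1 is a domain through which they bind transcription factors such as the hypoxia-inducible factor HIF. Subconfluent cells under normoxia received TSA (100 ng/ml) and then DP (100 µM) 30 min later, TSA and then vehicle, vehicle and then DP, or ethanol vehicle both times, and were lysed 3 h later. There was no repeat culture of any line, so errors below rest on how treatment changes differed between lines. They were pooled over the treatments and drawn toward those of other genes, and they include differences between single cultures and arrays. The question open to these arrays is whether the messages of the respiratory chain move within hours of a hypoxia mimic or of deacetylase inhibition.

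Complexes I to IV pass electrons from NADH and succinate to oxygen, and complexes I, III and IV pump protons across the inner mitochondrial membrane, which drives ATP synthesis by complex V. Complexes I, II and III carry iron-sulfur clusters and complexes II, III and IV carry haem, so the chain is a large user of cellular iron. Promoters of many nuclear subunit genes hold sites for the factors NRF1, GABP (an ETS factor) and YY1. HIF is known to act on the chain mostly at a few points, among them the isoform genes Cox4i2 and Ndufa4l2 and the regulators Pdk1, Bnip3, Mxi1 and Higd1a.

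Promoter sequence from RefSeq (GRCm38.p6), from 250 bases before to 50 bases after the annotated start, was given for 69 of the 84 measured genes, in 74 windows, and was set beside all 32851 windows. Motifs were searched on both strands and each was counted on its own, although the NRF1 motif and the HIF motifs can share bases. The NRF1 motif (GCGCA, 1 free base, then GCGC) was in 17 of the 74 windows (23.0%) and in 4.6% of all windows. The ETS motif CCGGAAG was in 25.7% against 8.86%, and the YY1 motif AAGATGGC in 13.5% against 2.75%. The HIF motif in the form ACGTG was in 24.3% of the 74 windows against 19.6% of all, and in the form GCGTG in 55.4% against 32.4%. The windows of the respiratory chain genes were also richer in G and C, with a median of 59.0% against 52.7%. These are counts of letters and were not tested, and windows differ in base composition.

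The 150 bases before the start are printed for 1 gene of each complex. Where a complex had genes with an NRF1 match there, the choice was among those. The gene with the most matches to the NRF1, ETS and YY1 motifs together was taken, with ties settled by symbol. Genes on 1 chromosome were left out before the choice, so a gene there with more matches would have been passed over. The printed sequences show what a window with such motifs looks like and are not typical, since most of the windows lack each of the 3. Capitals mark NRF1 and ETS motifs, on either strand. They lie at chr6:24527691-24527840 (Ndufa5, complex I), chr13:74350241-74350390 (Sdha, complex II), chr10:80406822-80406971 (Uqcr11, complex III), chr5:115348959-115349108 (Cox6a1, complex IV) and chr11:115419920-115420069 (Atp5h, complex V), all on the minus strand. The last sequence is that of Ndufv3 (complex I, chr17:31519965-31520114, plus strand), shown because it was the 1 gene called with DP. Its capitals mark the HIF motif in the form GCGTG or its reverse complement. In the other printed windows this motif was left in lower case. It also occurs in those of Ndufa5, Sdha and Uqcr11, genes not called with DP, so it does not set Ndufv3 apart.
Ndufa5: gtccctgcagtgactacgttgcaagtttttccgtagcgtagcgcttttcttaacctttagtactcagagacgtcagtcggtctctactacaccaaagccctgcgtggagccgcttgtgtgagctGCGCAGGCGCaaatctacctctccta
Sdha: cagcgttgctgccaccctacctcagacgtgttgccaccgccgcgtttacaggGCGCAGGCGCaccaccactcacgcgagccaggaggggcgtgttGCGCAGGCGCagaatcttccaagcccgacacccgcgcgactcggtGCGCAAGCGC
Uqcr11: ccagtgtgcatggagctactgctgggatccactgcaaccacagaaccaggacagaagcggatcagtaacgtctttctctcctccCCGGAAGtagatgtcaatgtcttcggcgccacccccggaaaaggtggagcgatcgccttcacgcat
Cox6a1: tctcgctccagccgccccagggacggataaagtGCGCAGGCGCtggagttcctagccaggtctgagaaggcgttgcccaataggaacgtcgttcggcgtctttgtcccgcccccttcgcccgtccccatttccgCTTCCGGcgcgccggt
Atp5h: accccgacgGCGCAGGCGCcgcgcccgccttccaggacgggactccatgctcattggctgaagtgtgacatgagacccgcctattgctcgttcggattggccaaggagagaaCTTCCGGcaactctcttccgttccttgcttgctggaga
Ndufv3: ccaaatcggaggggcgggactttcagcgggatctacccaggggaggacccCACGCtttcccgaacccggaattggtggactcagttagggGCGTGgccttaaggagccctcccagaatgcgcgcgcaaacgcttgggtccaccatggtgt
The Sdha window held 3 matches to the NRF1 motif, beginning 98, 55 and 10 bases before the start. The Cox6a1 and Atp5h windows each held 1 NRF1 and 1 ETS match. In the Uqcr11 window the match was to the ETS motif alone.

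The arrays had median signals of 103.0 to 153.8, with 36.8% to 42.6% of all probe sets at 200 or more. The vehicle array of flox1 stood apart: its ratio of 3' to 5' signal for Gapdh was 2.593, while the other arrays had 0.907 to 1.263, and the actin ratio was 2.066, while the others had 1.289 to 1.629. The 10 fibroblast markers listed were all at or above 200 on every array. Of the 8 muscle markers, 0 were at or above 200 on every array and 3 (Myod1, Myog and Myl1) were below it on all, while Des reached it on 8 arrays. Of the others, 3 of 4 smooth muscle, 1 of 5 adipocyte (Fabp4), 0 of 5 macrophage, 0 of 4 epithelial and 1 of 4 neural markers (Nes) were at or above 200 on every array, and the 4 endothelial markers were below it on all. Epcam reached 200 on 15 arrays, Csf1r on 13, Pparg on 12 and Krt18 on 11. The part of other cell types in the results was not tested. Crebbp, the CBP gene, had mean signals over 4 arrays of 953 in triCH1flox1 and 993 in flox1, against 1470 in triCH1flox2 and 1350 in flox2. Ep300 averaged 555 in triCH1flox2 and 436 in flox2, against 987 in triCH1flox1 and 836 in flox1, so each gene was lower in the lines with its conditional allele. Xist ran from 1751 to 5389 in the triCH1 lines and from 10.1 to 111 in the control lines, and the Y-linked gene Eif2s3y from 8.90 to 82.9 in the triCH1 lines and from 974 to 1519 in the control lines. CH1 class and sex therefore cannot be told apart in a comparison of the classes.

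With DP most messages of the respiratory chain stayed within a narrow range of their vehicle level, while genes of the hypoxia response rose steeply on the same arrays. Bnip3, a receptor for mitophagy, rose 10.6-fold with DP (3.40 ± 0.0847 on the log2 scale, SE, adjusted p = 9.39e-14, limma), and Pdk1, which slows the entry of pyruvate into the citric acid cycle, rose 6.88-fold. In the comparison of DP with vehicle over 4 lines, 1 of the 84 genes was called, that is, had an adjusted p under 0.05 over all genes. That is 1.19% of them, and 1.71% of all genes tested were called (1.44% higher and 0.27% lower). The median change was -0.047 on the log2 scale, against -0.029 for all genes tested, and 27 of the 84 changes were above 0. A change beyond 0.5 log2 units was found for 1 gene (1.19%) and for 8.5% of all genes. For 66 of the 84 genes (78.6%) the 95% interval of the change lay within 0.5 log2 units of 0, that is, within 1.41-fold either way. The share was 45.0% over all genes, whose median standard error was larger (0.166 against 0.0963). At an unadjusted p under 0.05 there were 11 of the 84 genes (13.1%) and 12.6% of all genes.

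The gene called with DP was Ndufv3, a small accessory subunit of the NADH-binding part of complex I. Its signals with DP were 4556 in triCH1flox1, 4631 in triCH1flox2, 5332 in flox1 and 5693 in flox2. Under vehicle they were 3684, 3273, 4774 and 3929 in the same lines. The signal was higher with DP in each line, although the flox1 vehicle array overlapped the DP range. The rise was 1.29-fold (0.37 ± 0.0886 on the log2 scale, SE, n = 4 lines, adjusted p = 0.0421, limma). The call was lost under 8 of the 14 alternative settings, with adjusted p up to 0.317, and it was lost when any 1 of the 4 lines was left out.

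Within the complexes the largest changes with DP that were not called were small or variable. In complex I, Ndufs8, an iron-sulfur subunit, changed by -0.44 ± 0.153 (SE, adjusted p = 0.222), but its 6 measured probe sets ran from -0.443 to 0.243. In complex III the range was from -0.23 for the core subunit Uqcrc2 to 0.05 for Uqcrc1, and in complex V from -0.32 for Atp5k, a subunit of the membrane part, to 0.14 for the catalytic-head subunit Atp5a1. All 4 complex II genes, which hold the succinate dehydrogenase subunits, changed by 0.02 to 0.10. In complex IV the extremes were the muscle isoform Cox6a2 at -0.63 ± 0.398 and the testis isoform Cox6b2 at 0.13 ± 0.239, both near the limit of measurement. Among the assembly factors the range was from -0.43 for Ndufaf6 to 0.23 for Ndufaf1, and none was called.

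**Figure D1:**
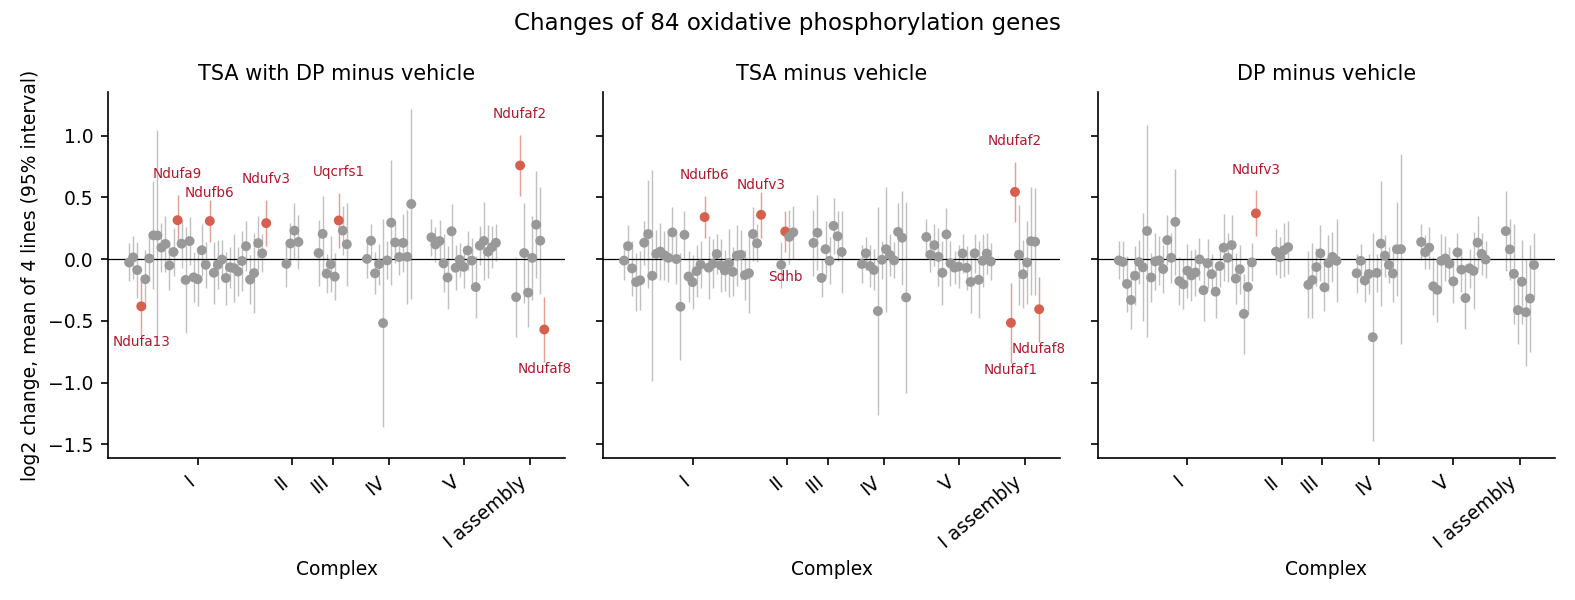
Change of each of the 84 genes (log2 scale, y axis), grouped by complex along the x axis, as the mean of 4 lines with its 95% interval, for TSA with DP, TSA and DP, each minus vehicle. Called genes (adjusted p under 0.05 over all genes) are red and named. Most points lie within 0.5 of 0, and the 3 widest intervals belong to Ndufa4l2, Cox6a2 and Cox8c, which reached a signal of 200 on 2, 4 and 2 arrays.

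TSA changed a large part of the transcriptome in 3 h but few of the respiratory chain genes. With TSA against vehicle, 6 of the 84 genes were called (7.14%), 4 higher and 2 lower, while 28.2% of all genes tested were called, 15.8% higher and 12.5% lower. Of the 76 subunit genes 3 were called, all higher, and of the 8 assembly factors 3 were called. The median change was 0.006, against 0.026 for all genes. Changes beyond 0.5 log2 units were found for 2 of the 84 genes (2.38%) and for 27.6% of all genes, and the 95% interval lay within 0.5 log2 units of 0 for 69 genes (82.1%) and for 28.4% of all genes. At an unadjusted p under 0.05 there were 11 of the 84 (13.1%), against 38.6% of all genes.

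The assembly factor Ndufaf2, a chaperone that binds a late intermediate of complex I, showed the largest rise. Its signals with TSA were 2114 in triCH1flox1, 2092 in triCH1flox2, 1890 in flox1 and 1700 in flox2, against 1365, 1380, 1127 and 1412 under vehicle in the same lines. The TSA and vehicle signals did not overlap. The rise was 1.46-fold (0.54 ± 0.116 on the log2 scale, SE, n = 4 lines, adjusted p = 0.00211), and it stayed called under all 14 alternative settings.

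Ndufb6, an accessory subunit of the membrane arm of complex I, rose 1.27-fold (0.34, adjusted p = 0.00445). Its signals with TSA were 9428 in triCH1flox1, 8457 in triCH1flox2, 8142 in flox1 and 8744 in flox2, against 7028, 5572, 7778 and 7204 under vehicle. All 4 TSA arrays were above all 4 vehicle arrays, and the second measured probe set of the gene changed in the same direction (0.43). Ndufv3 rose 1.28-fold (0.36, adjusted p = 0.00584), with TSA signals of 5451 in triCH1flox1, 4378 in triCH1flox2, 5154 in flox1 and 5040 in flox2. These overlapped the vehicle signals given above through the flox1 vehicle array, and each line was higher with TSA.

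Sdhb, the iron-sulfur subunit of succinate dehydrogenase, rose by the smallest amount of those called, 1.17-fold (0.22 ± 0.0782, SE, adjusted p = 0.0415). Its TSA signals were 6243 in triCH1flox1, 5792 in triCH1flox2, 5424 in flox1 and 5930 in flox2, and its vehicle signals were 4970, 4939, 4810 and 5265. The groups did not overlap, but the call was lost under 9 of 14 alternative settings. Its partners were not called: Sdhd changed by 0.22 (adjusted p = 0.126), Sdhc by 0.18 (0.218) and the flavoprotein subunit Sdha by -0.05 (0.75).

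A pair of assembly factors fell with TSA. Ndufaf1, which acts in assembly of the membrane arm of complex I, fell 1.43-fold (-0.52 ± 0.153, SE, adjusted p = 0.0181). Its TSA signals were 453 in triCH1flox1, 466 in triCH1flox2, 511 in flox1 and 457 in flox2, against 685, 746, 697 and 656 under vehicle, with no overlap. The call was lost under 5 of 14 alternative settings, among them each that left out 1 of the 4 lines, with adjusted p up to 0.0987. Ndufaf8 fell 1.33-fold (-0.41, adjusted p = 0.0209), with TSA signals of 1435, 1125, 1143 and 1268 and vehicle signals of 1581, 1568, 1953 and 1550 in the same order of lines. That fall rests on 1 probe set: the gene's other measured probe set, of mean signal 194, changed by 0.37. With all passing probe sets averaged the change of Ndufaf8 was -0.017 (adjusted p = 0.951). Without the flox1 vehicle array neither Ndufaf1 nor Ndufaf8 was called.

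**Figure D2:**
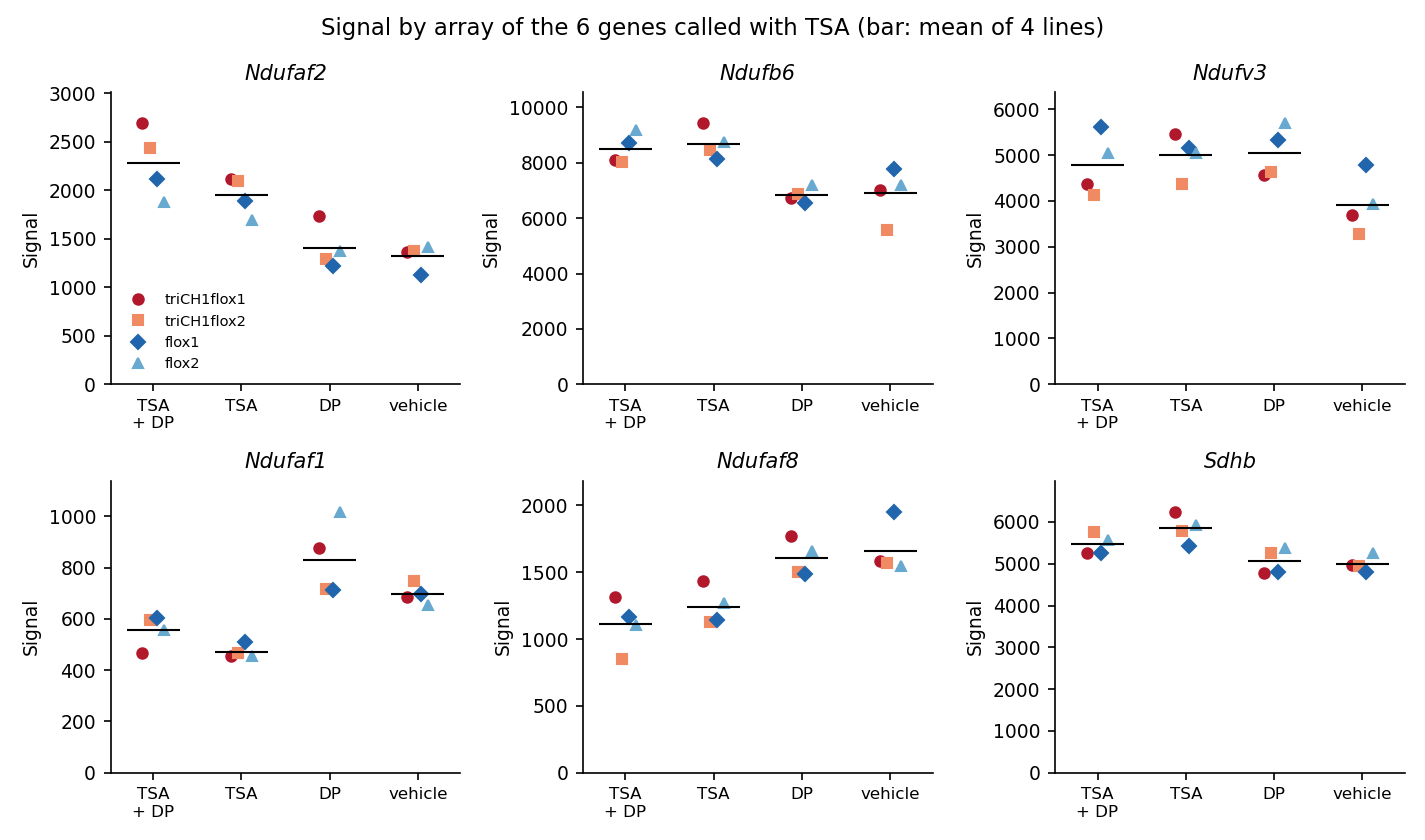
Signal on each array (y axis, linear, from 0) of the 6 genes called with TSA against vehicle, by treatment (x axis). Each point is 1 line and the bar is the mean of 4 lines. In each line Ndufaf2 stands higher on the TSA arrays, with and without DP, than on the DP and vehicle arrays, and Ndufaf1 lower.

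The comparison of TSA with DP against vehicle gave 7 called genes of 84 (8.33%), 5 higher and 2 lower, against 31.6% of all genes (17.8% higher and 13.8% lower). Changes beyond 0.5 log2 units were found for 3 of the 84 (3.57%) and 30.1% of all genes. It shares its vehicle arrays with the comparisons above. Ndufaf2 rose 1.69-fold (0.76, adjusted p = 1.14e-04), with signals of 2692 in triCH1flox1, 2433 in triCH1flox2, 2116 in flox1 and 1883 in flox2, all above the vehicle range. Ndufb6 and Ndufv3 rose by 0.31 and 0.29 on the log2 scale. The Ndufb6 call was lost under 3 of 14 alternative settings, and that of Ndufv3 under 5, among them each that left out 1 line. Called besides these were Ndufa9, a subunit near the quinone site of complex I (0.32, adjusted p = 0.0193), and Uqcrfs1, the Rieske iron-sulfur protein of complex III (0.31, adjusted p = 0.0337). Uqcrfs1 had signals of 4997, 4538, 3799 and 3182 with TSA and DP in triCH1flox1, triCH1flox2, flox1 and flox2, against 3341, 4087, 2642 and 3153 under vehicle, so these ranges overlapped. Lower were Ndufaf8 (-0.57, adjusted p = 0.00218) and the complex I subunit Ndufa13 (-0.38, adjusted p = 0.0136). With all passing probe sets averaged, the Ndufaf8 change was -0.106 (adjusted p = 0.635), and its other probe set changed by 0.36. Ndufa13 had 7809, 6691, 9834 and 8493 with TSA and DP, against 7923, 9921, 15964 and 10087 under vehicle, and the highest of these values was that of the flox1 vehicle array. Without that array the Ndufa13, Ndufa9 and Uqcrfs1 calls were lost.

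The effect of TSA could be read a second time on arrays that the comparison of TSA with vehicle did not use, those with DP present throughout. Both comparisons came from 1 fit and shared the error of each gene (0.116 for Ndufaf2 in both). A gene of small error was thus favoured in both, and the second reading is not a separate test. This comparison of TSA with DP against DP alone was added after values had been seen. It called 9 of the 84 genes (10.7%), 7 higher and 2 lower, against 29.9% of all genes (17.7% higher and 12.2% lower). Ndufaf2 rose (0.68, adjusted p = 3.13e-04), as did Ndufb6 (0.31, adjusted p = 0.00758), and Ndufaf8 (-0.52) and Ndufaf1 (-0.53) fell. These 4 genes were thus called in both comparisons, on cultures of the same 4 lines. They were 4 of the 6 called against vehicle and 4 of the 9 called against DP. The share of all genes called in both is not given here, so the overlap is not read as particular to these genes. The Ndufaf8 call rests on 1 probe set, as above. Ndufv3 changed by -0.08 (adjusted p = 0.552) when DP was present in both arms, with signals of 4379, 4135, 5621 and 5038 with TSA and DP, against 4556, 4631, 5332 and 5693 with DP. Sdhb changed by 0.11 (adjusted p = 0.315). The others called with DP present were Ndufaf6 (0.71), an assembly factor of complex I, and the subunits Ndufv1 (0.35), Ndufb10 (0.32), Uqcrfs1 (0.34) and Ndufs5 (0.26, adjusted p = 0.0497), all higher. The converse comparison, TSA with DP against TSA alone, was likewise added later and called 0 of the 84 genes by limma, against 0.148% of all genes, and 2 of the 84 had an unadjusted p under 0.05. No departure from additivity of the TSA and DP changes was called among the 84 genes, against 0.392% of all genes. Of the 84, 2 had an unadjusted p under 0.05. The share of all genes at that p is not given here for either comparison. Ndufv3 had the estimate nearest to a call among those discussed here, -0.44 (adjusted p = 0.307).

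By complex, the medians over 4 lines stayed close to 0 under each treatment. For complex I they were -0.015 with TSA and DP, -0.012 with TSA and -0.066 with DP. For complex III they were 0.085, 0.106 and -0.048, for complex IV 0.018, -0.008 and -0.079, and for complex V 0.070, -0.013 and -0.013 in the same order. The 4 complex II genes had the highest medians with TSA and DP (0.133) and with TSA (0.199), and with DP theirs was 0.067. Among the lines, flox1, whose vehicle array had the raised 3' to 5' ratios, had the highest complex II median each time. It was 0.212 with TSA and DP, 0.227 with TSA and 0.178 with DP. With DP the complex II median was below 0 in triCH1flox1 (-0.048) and flox2 (-0.004). Complexes IV and V had no called gene under any of these treatments, by limma over 4 lines. The extremes with TSA were -0.38 for Ndufb1 and 0.36 for Ndufv3 in complex I, -0.15 for Uqcrb and 0.27 for Uqcrfs1 in complex III, -0.42 for Cox6a2 and 0.22 for Cox7a2l in complex IV, and -0.18 for Atp5k and 0.20 for Atp5g1 in complex V. In complex V the 95% interval lay within 0.5 log2 units of 0 for all 17 genes with TSA, with DP or without, and for 15 of 17 with DP alone.

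Line by line, few genes moved the same way 4 times. With DP 10 of the 84 genes (11.9%) changed in 1 direction in all lines, against 17.1% of all genes. With TSA the count was 15 (17.9%), against 41.1% of all genes, and with TSA and DP it was 20 (23.8%), against 44.4%. The median change of the 84 genes with DP was -0.017 in triCH1flox1, -0.032 in triCH1flox2, -0.222 in flox1 and 0.002 in flox2. With TSA it was 0.154, 0.023, -0.150 and 0.037, and with TSA and DP 0.082, 0.057, -0.026 and 0.032 in the same order of lines. The flox1 line was thus the lowest each time, and each of its changes was taken against the vehicle array with the raised 3' to 5' ratios. The part of RNA integrity in this was not tested. The change of TSA with DP minus DP, which uses no vehicle array, had a median of 0.112 in triCH1flox1, 0.041 in triCH1flox2, 0.130 in flox1 and 0.024 in flox2. Over all genes tested, the medians with DP ran only from -0.044 in flox1 to -0.012 in triCH1flox1. Without the flox1 vehicle array the median of the 84 genes was 0.069 with TSA and DP, 0.038 with TSA and -0.018 with DP.

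**Figure D3:**
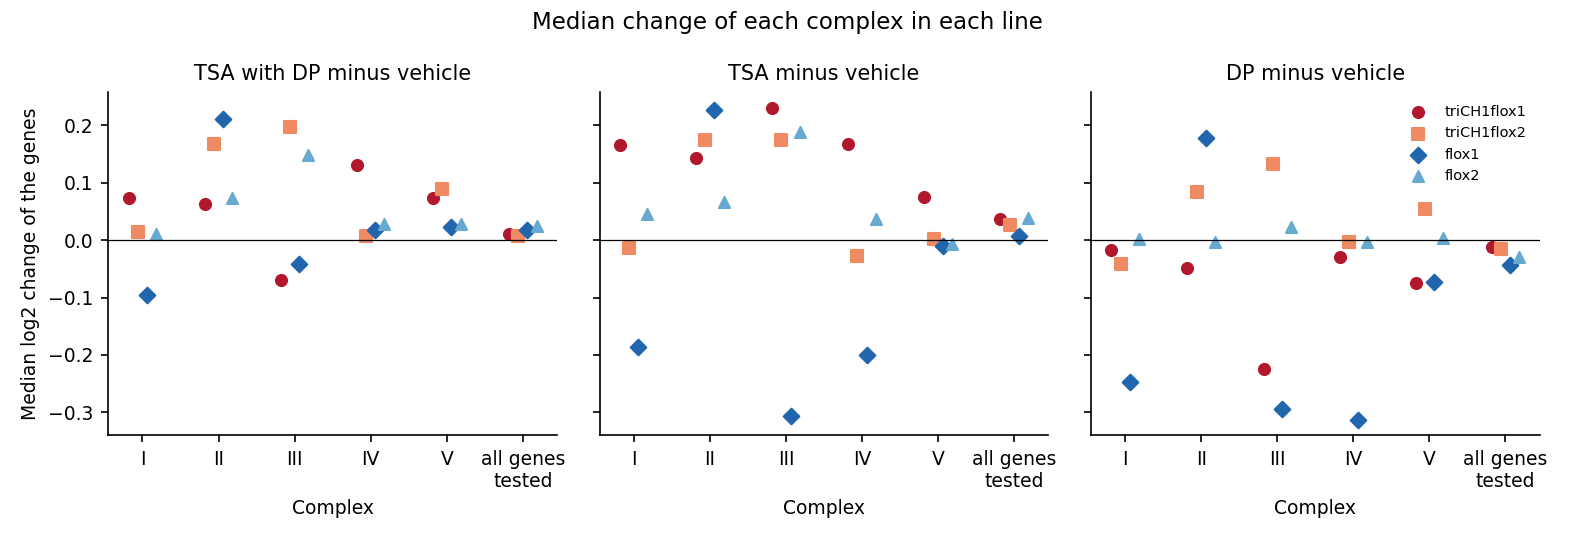
Median log2 change of the measured genes of each complex (y axis) in each line (points), with the median over all genes tested at the right, for TSA with DP, TSA and DP, each minus vehicle. The flox1 points of complexes I, III and IV lie below those of most other lines with TSA and with DP.

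No difference between the triCH1 and the control lines was called in these genes. For the DP change, the triCH1 minus control difference was called for 0 of the 84 genes by limma, against 0.0261% of all genes, and 2 had an unadjusted p under 0.05. The 95% interval of that difference lay within 0.5 log2 units of 0 for only 28 of the 84 genes (33.3%), so moderate differences stay within the error of 2 lines a class. In each class alone, DP gave no call in the triCH1 lines (0.575% of all genes) or the control lines (1.55% of all genes). The unadjusted p was under 0.05 for 1 gene in the triCH1 lines (1.19%, against 4.9% of all genes) and for 16 in the control lines (19.0%, against 13.5% of all genes). The control change uses the flox1 vehicle array with the raised 3' to 5' ratios, and its median over the 84 genes was -0.107 with that array and -0.011 without it. For the TSA change the difference between classes was called for none of the 84 and for none of all genes. At an unadjusted p under 0.05 there were 8 of the 84. The shares of all genes at that p, for this and for the DP difference, are not given here. The median class difference in the TSA change over the 84 genes was 0.128, against 0.002 over all genes. Without the flox1 vehicle array it was 0.051 over the 84. TSA alone gave 3 called genes in the triCH1 lines (Ndufaf2, Ndufb6 and Ndufv3), against 15.7% of all genes, and 1 in the control lines (Uqcrfs1, 0.49, adjusted p = 0.035), against 15.6%.

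Levels over the 4 treatments were compared between the classes on line means (2 triCH1 against 2 control lines). By limma 0 of the 84 genes were called, against 0.157% of all genes. At an unadjusted p under 0.05 there were 5, and the share of all genes at that p is not given here. The median difference was -0.014, against -0.007 over all genes. For 72 of the 84 (85.7%) the 95% interval lay within 0.5 log2 units of 0, against 43.5% of all genes. The smallest p values were those of the small complex III subunit Uqcr11 (-0.29, adjusted p = 0.373), Ndufa13 (-0.30, adjusted p = 0.396) and Uqcrfs1 (0.26, adjusted p = 0.419). Single lines could differ more than the classes did. Ndufs5, a complex I subunit of the intermembrane space side, had 1473 to 2284 on the 4 flox1 arrays and 3943 to 5013 on the 4 flox2 arrays, against 3010 to 4412 on the 8 triCH1 arrays. This gene was singled out after its values were seen, and a pseudogene symbol, Ndufs5-ps, is in the annotation, so a contribution of another transcript was not tested.

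The common isoforms of complex IV were measured on every array, and most of the tissue-restricted forms were below 200 on most arrays, with Cox6b2 the exception. Cox4i1, the common form of subunit 4, had 12858 to 15066 with TSA and DP, 12799 to 14418 with TSA, 11577 to 13741 with DP and 12961 to 16617 under vehicle. Its lung and hypoxia isoform Cox4i2 stayed below 200 on all 16 arrays, between 23.3 and 196.9, and with DP it had 112, 159, 24.3 and 151 in triCH1flox1, triCH1flox2, flox1 and flox2. No rise of Cox4i2 was detectable at this signal. Cox6a1, Cox6b1, Cox7a2 and Cox8a, the forms of most tissues, were at least 200 on every array and changed by -0.12 to 0.17 with DP and with TSA. Of the heart and muscle forms, Cox6a2 reached 200 on 4 arrays, while Cox7a1 and Cox8b did so on 1 array each, too few to be tested. Cox8c, of testis, reached it on 2 arrays and Cox6b2 on 13, and Cox7b2 stayed between 9.8 and 72.3. Cox6b2 changed by 0.30 ± 0.239 (SE, adjusted p = 0.382) with TSA and DP, 0.08 with TSA and 0.13 with DP. Cox7a2l, a relative of subunit 7a that acts in supercomplexes, changed by 0.22 with TSA (adjusted p = 0.151).

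Ndufa4, long listed under complex I and now placed in complex IV, changed by 0.19 with TSA and DP, 0.20 with TSA and -0.07 with DP. Its relative Ndufa4l2, a known HIF target, had 55.1, 54.9, 168.9 and 404.5 with DP in triCH1flox1, triCH1flox2, flox1 and flox2, against 56.2, 196.0, 97.5 and 101.3 under vehicle. Of these 8 arrays, the flox2 DP array alone was above 200. The change was 0.23 over 4 lines (adjusted p = 0.87), and the line values of -0.01, -1.23, 0.57 and 1.59 spread over both directions. By class the change was -0.62 in the triCH1 lines and 1.08 in the control lines, and neither was called. The triCH1 minus control difference of -1.70 ± 0.808 (SE) was not called either (adjusted p = 0.979, limma). The ring subunit c of ATP synthase is encoded by the genes Atp5g1, Atp5g2 and Atp5g3, whose mature proteins are alike. With TSA they changed by 0.20 (adjusted p = 0.164), -0.03 and -0.07, and with DP by -0.01, 0.01 and -0.04. Uqcrh, the hinge protein of complex III, changed by 0.23 with TSA and DP, 0.19 with TSA and 0.02 with DP.

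The 6 genes not measured were Cox4i2, Cox7a1, Cox7b2 and Cox8b, and with them Ndufb4 (7.8 to 173.9) and Cox7c (15.4 to 162.2), subunits common to most tissues whose listed probe sets gave almost no signal. A further 8 matching symbols, among them Ndufa11 and Ndufs6, occurred only on probe sets with several symbols and were not analysed here. The 84 genes had 152 measured probe sets, and some genes had probe sets that disagreed, of which 2 are given here, chosen after their values were seen. For Ndufaf4, a complex I assembly factor, the change with TSA and DP was -0.27 on the probe set used and 0.62 on the other, and for Sdhc it was 0.23 and -0.29.

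Lists of genes that control, feed or build the chain are given by their counts, with no test between lists. The lists were chosen with earlier results of these data known, so a high share in a list is not read as an enrichment. Of 13 regulators of mitochondrial biogenesis, 9 were called with TSA (69.2%), against 28.2% of all genes. Nrf1 fell by 1.16 on the log2 scale (adjusted p = 3.63e-04), Gabpa by 0.74, Gabpb1 by 0.78, Yy1 by 0.73, Myc by 1.30 and Pprc1 by 1.07. The coactivator Ppargc1b rose 3.31-fold (1.73, adjusted p = 0.00193), as did the nuclear receptor Esrra (0.68) and the mitochondrial transcription factor Tfb2m (0.74). With TSA and DP 9 of the 13 were called and with DP none, against 31.6% and 1.71% of all genes. The genes Nrf1, Gabpa and Yy1 encode factors whose motifs were counted in the promoters above. Whether their falls bear on the respiratory chain genes was not tested.

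Among 17 enzymes of the citric acid cycle and pyruvate dehydrogenase, 6 were called with TSA (35.3%), against the same 28.2% of all genes. Pdhx (0.71), Pdhb (0.48) and Dlat (0.41) of pyruvate dehydrogenase and Idh3a (0.46) and Suclg1 (0.38) of the cycle rose, and Pdha1 fell by 0.26 on the log2 scale. Of 29 assembly factors of complexes II to V, 3 rose and 3 fell with TSA (20.7% called), a share below that of all genes: Bcs1l (0.59), Sdhaf3 (0.57) and Cox19 (0.44) were higher, and Coa7 (-0.73), Sco2 (-0.68) and Cox15 (-0.61) lower. Of 8 electron carriers and subunits outside the symbols used, Etfdh (0.63), which feeds electrons from fatty acid oxidation to ubiquinone, and Gpd2 (0.37), the glycerol phosphate dehydrogenase of the inner membrane, rose (25% called). Of 76 mitochondrial ribosomal proteins, which make the subunits encoded in mitochondria, 13 rose and 9 fell with TSA (28.9% called), close to the share of all genes. In none of these lists was a gene called with DP.

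Of 7 measured genes listed as known to rise in hypoxia, some of which act on respiration and some, such as Vegfa, elsewhere, 6 rose with DP, against 1.71% of all genes: Bnip3 and Pdk1 as given, the prolyl hydroxylase Egln3 (2.73), the growth factor Vegfa (1.74), the Myc antagonist Mxi1 (1.44) and Higd1a (1.03), a protein that binds complex IV. The protease Lonp1 changed by 0.36 and was not called. The list was made of genes known to rise and holds the DP checks Bnip3 and Pdk1, so its count is not an independent result. Ndufa4l2, a known HIF target given above, was not among the 7 and was not called with DP. With TSA and DP 6 of 7 also rose, with smaller changes of 2.57 for Bnip3 and 0.97 for Pdk1. Higher with TSA alone were Bnip3 (1.27), Mxi1 (1.07), Egln3 (0.96), Pdk1 (0.67) and Lonp1 (0.29). Cdkn1a, a cell cycle inhibitor known to rise with deacetylase inhibitors, was listed as the check that TSA acted, as Bnip3 and Pdk1 were for DP. It fell by 0.28 on the log2 scale with TSA (adjusted p = 0.0341, limma), so this check was not met.

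**Figure D4:**
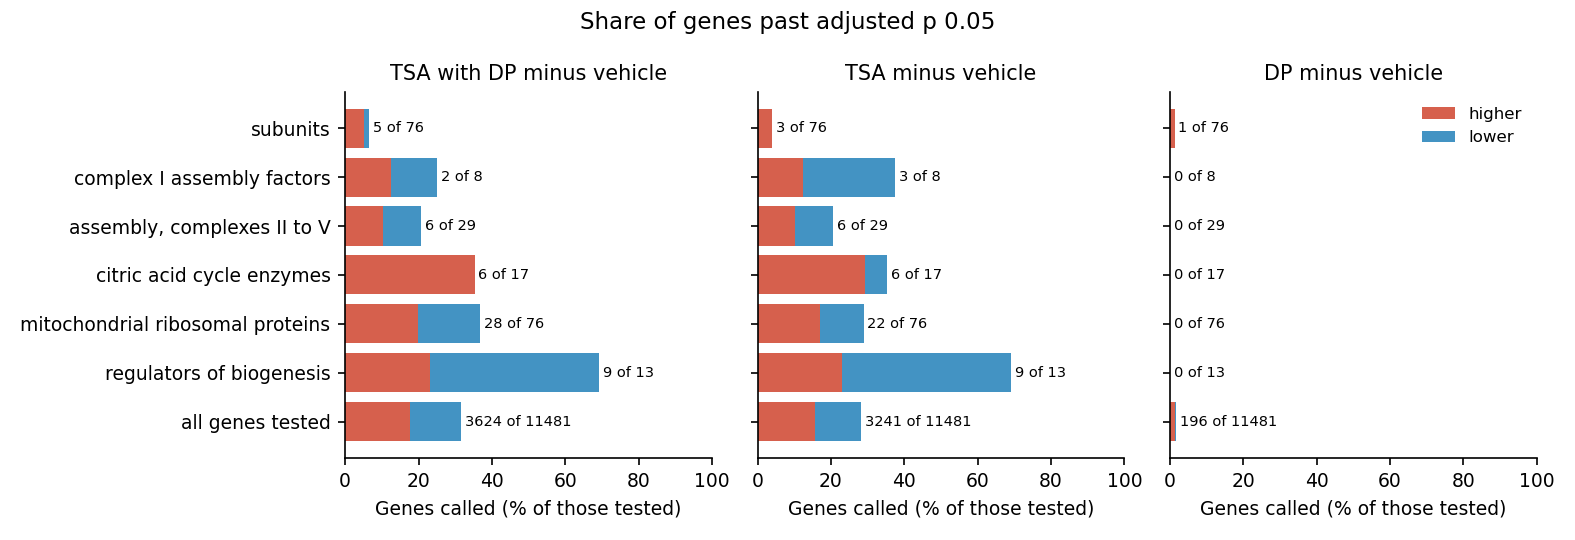
Percentage of genes called higher or lower (x axis) in the subunit genes, in related lists and in all genes tested (rows), for TSA with DP, TSA and DP, each minus vehicle. Numbers beside the bars are genes called of genes tested: 3 of 76 subunits and 9 of 13 regulators with TSA, against 3241 of 11481 genes.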

How the data were processed

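Total RNA was hybridised to Affymetrix Mouse430_2 arrays, 1 array a sample. The deposited values are intensity signals of the Affymetrix statistical algorithm, scaled by the authors to a trimmed mean of 500 on each array, per the labels. The software version is not given in the sources used here. Of 45101 probe sets, 34945 carried 1 gene symbol, 932 several and 9160 none in the platform annotation, and 64 were controls. Probe sets with a signal of at least 200 on at least 2 arrays were kept (19895), and 1 per gene, that of the highest mean, was tested (11481 genes). Values were log2(signal + 50), so changes of low genes are understated. limma 3.58.1 (R 4.3.3) fitted 8 means of class and treatment with the line as a block and a variance trend, with Benjamini-Hochberg adjustment over all genes and a threshold of 0.05. Levels of the classes were compared on line means. Each line was used under all 4 treatments, which pairs the arrays. Deviations of arrays of 1 line correlated at 0.077 to 0.328 (12 pairs). For lines of the same number in the other class the range was 0.00969 to 0.17 (16 pairs), so the 2 ranges overlapped.

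The members and lists were chosen with earlier results of these data known. Genes named in the text were all called members (up to 10 each way), the extremes of each complex, all Sdh genes, fixed isoform families and the called genes of the other lists; exceptions are marked. The 2 comparisons with TSA or DP present in both arms were added after values had been seen. The fit was tested on simulated data. Alternatives changed the pseudocount (16 or 200), the filter, the scaling, the probe set rule, the variance trend and the block, or left out the flox1 vehicle array or a line. Array number limits the precision.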

Additional observations from a re-analysis of the deposited data

How the results depend on the processing

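No named gene reversed its direction under the 14 alternatives among the calls with DP, TSA or both against vehicle. The DP count of 1 gene became 0 with no filter on low signals, with arrays centred on the median, with no variance trend, and with each line left out (0 to 0). Without the replicate block it was also 0, the TSA count was 4 in place of 6 and the count with TSA and DP was 6 in place of 7. Leaving out a line gave 3 to 5 genes with TSA, 3 without either triCH1 line. For TSA with DP it gave 3 to 11, with 3 without flox1, 4 without triCH1flox2 and 11 without triCH1flox1, and no variance trend gave 2. With DP in the control lines leaving out a line gave 0 to 2 genes, 2 lower without flox2, where the fit rests on 1 line assumed to vary like the others. The median with TSA and DP was 0.069 without the flox1 vehicle array, and that with DP in the triCH1 lines was -0.052 after quantile normalization. The median class difference in level was 0.009 without the flox1 vehicle array and -0.042 to 0.006 with a line left out, and the count of class differences was 0 to 1, with 1 gene without flox2. Causes of these shifts were not tested. The shares of all genes called under each of these settings are not given here. A shift in the counts is therefore not read as particular to the respiratory chain genes. With 1 culture a line and 2 lines a class, p-values rest on differences between these lines, pooled over treatments. In the fit of treatment changes that spread had 6 residual degrees of freedom and was drawn toward that of other genes (prior degrees of freedom 10.4). Spread between lines and noise of single cultures or arrays cannot be told apart. Genes near a signal of 200 had wide intervals.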
